A study of Mus musculus with 6 samples.

Results

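The genes described here are 8 members of the osteoclast programme measured in cultured mouse macrophages: Acp5, Tnfrsf11a, Nfatc1, Dcstamp, Ocstamp, Oscar, Car2 and Itgb3. They were taken by name without a cut on any measured value, but with earlier results of these data known. All 8 were found among 16871 gene numbers that appeared in at least 1 of 6 RNA sequencing libraries. The 3 DKO libraries came from bone marrow-derived macrophages with a double knockout of ALDH2, an aldehyde dehydrogenase of mitochondria, and the LDL receptor. The 3 LKO libraries, the controls, came from macrophages without the LDL receptor only, so this deletion is shared by both groups. The mice were C57BL/6 and 8 weeks old, the marrow cells were cultured for 7 days, and every culture was then given oxidised low-density lipoprotein (oxLDL), the only agent the labels name. The labels do not say whether libraries of 1 genotype came from separate mice, so the p-values below measure the spread between these libraries, which may be technical.

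Osteoclasts are the bone-resorbing cells of the skeleton and arise from the same monocyte and macrophage precursors that give macrophages in culture. Macrophage colony-stimulating factor (M-CSF) keeps the precursors alive, and RANKL, acting through its receptor RANK on their surface, drives them to switch on the transcription factor NFATc1, fuse into multinucleated cells and make the acid and enzymes that dissolve bone. Co-stimulatory receptors that signal through ITAM adaptors supply the calcium signal that NFATc1 needs. Macrophages share the early part of this equipment, while fusion and resorption genes are known as late osteoclast genes.

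Each library held between 10760625 and 10987584 expected counts, which are the estimated reads per gene. Aldh2, the targeted gene, stood at 7.13 ± 0.181 FPKM in DKO and 240.9 ± 6.83 FPKM in LKO (SD, n = 3 each; FPKM is a level scaled to transcript length and library size), so that 2.96% of the LKO level was left. By exact permutation (two-sided) p was 0.1, a floor set by having 3 libraries per genotype. All 10 macrophage markers passed the filter on low counts. Their summed level was between 13920 and 15430 FPKM in DKO and between 12300 and 13090 FPKM in LKO. Lyz2 alone averaged 7616 FPKM in DKO and 6105 FPKM in LKO. Markers of other cells passed the filter too, among them 9 of 10 neutrophil markers, so passing it does not test the label. The highest sum of any other marker list was 608 FPKM, for neutrophil markers in LKO. For each gene in these bulk libraries, fewer cells of a type and less RNA per cell cannot be told apart.

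The osteoclast programme was present only in part, and in the same part in both genotypes. Acp5, Nfatc1, Tnfrsf11a and Itgb3 were expressed and passed the filter on low counts, while Dcstamp, Ocstamp, Oscar and Car2 had at most 3 counts in any library. Of the 4 members tested, Acp5 fell and Tnfrsf11a rose in DKO, and Nfatc1 and Itgb3 did not pass an edgeR quasi-likelihood adjusted p of 0.05. Among all 11809 genes tested, 14.3% were called, 7.42% higher and 6.88% lower in DKO. With only 4 members tested, 2 calls do not set the group apart from that background. In the same 2 members the FPKM ranges of the genotypes did not overlap, which was true of 29.6% of all genes tested.

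**Figure D1:**
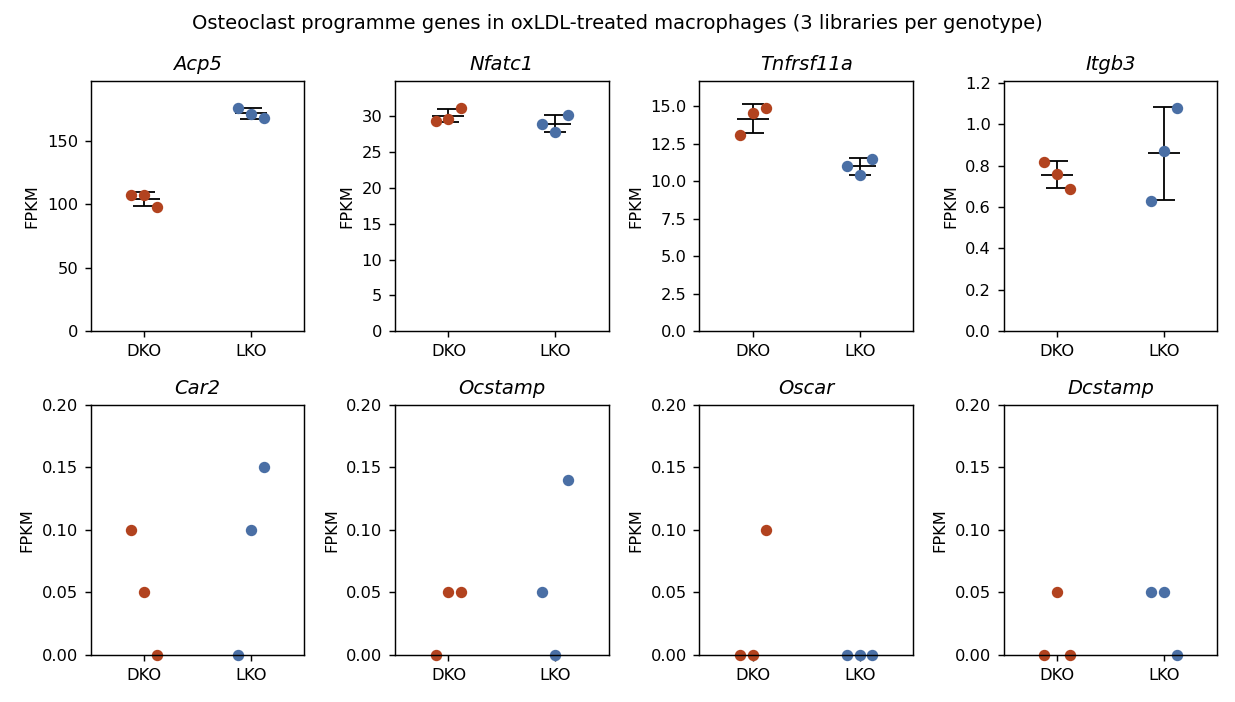
FPKM of the 8 members in each library, DKO left and LKO right in every panel; points are libraries, and in the upper row the horizontal mark is the mean and the bar the SD (n = 3 each). Acp5 is lower and Tnfrsf11a higher in all 3 DKO libraries than in any LKO library, Nfatc1 and Itgb3 overlap, and the 4 genes of the lower row, on a shared axis ending at 0.2 FPKM, lie at or near 0.

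Acp5 (NCBI gene 11433) encodes tartrate-resistant acid phosphatase, the enzyme used as the classical stain for osteoclasts and also made by macrophages. It was the most abundant member, above at least 95.4% of the listed genes in every library. Its level was 107, 107 and 97.95 FPKM in the DKO libraries, against 176, 171 and 168 FPKM in the LKO libraries. All DKO libraries lay well below the lowest LKO library. The means were 104 ± 5.32 FPKM in DKO and 171 ± 4.10 FPKM in LKO (SD, n = 3 each). This is a log2 fold change of −0.70 ± 0.05 SE (edgeR adjusted p = 8.82e-10), and the 95% interval of the fold was between 0.573 and 0.658. The counts behind it, 1474 to 1618 per DKO library and 2471 to 2628 per LKO library, were whole numbers in all 6 libraries. In the GENCODE annotation 137 exonic bases of Acp5 also lie in 6530413G14Rik, a non-coding transcript on the opposite strand, and with no strand setting given in the sources used here, reads of the pair cannot be told apart there.

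Acp5 has 3 RefSeq transcripts in the deposited files, and the transcript length that the authors give for the gene varied between libraries. In tested genes with 1 transcript this length never varied. For Acp5 it was 1383, 1386 and 1388 bases in DKO and 1381, 1380 and 1382 bases in LKO. The ranges did not overlap, but the difference of 5.31 bases was small, and the exact two-sided permutation p was 0.1, again the floor. Such a separation was found in 9.83% of the 3491 genes with several transcripts whose length varied. Nfatc1, with 6 transcripts, had overlapping lengths, 4462 ± 20.1 bases in DKO and 4446 ± 9.90 bases in LKO (SD, n = 3 each).

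The 3 annotated starts of Acp5 have different sequence in front of them, which is shown because Acp5 is the member that fell, next to that of Tnfrsf11a, the member that rose. The windows are the 250 bases before each start in RefSeq's table for GRCm38.p6, 5′ to 3′ on the strand of the gene. They were read at chr9:22135747-22135996, chr9:22131866-22132115 and chr9:22130599-22130848 on the minus strand for Acp5, and at chr1:105780473-105780722 on the plus strand for Tnfrsf11a. Capitals mark matches, on either strand, to GGAAA, the core bound by NFAT factors, TGANTCA, bound by AP-1, GAGGAA, bound by PU.1, and the E-boxes CATGTG and CACGTG, of the kind bound by MITF; GGAAA and GAGGAA share letters and can overlap.
Acp5, most upstream start: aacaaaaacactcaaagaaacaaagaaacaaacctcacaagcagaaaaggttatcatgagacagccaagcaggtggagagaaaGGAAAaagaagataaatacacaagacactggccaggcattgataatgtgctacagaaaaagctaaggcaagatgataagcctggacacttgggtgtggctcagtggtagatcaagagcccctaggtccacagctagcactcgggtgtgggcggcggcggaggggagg
Acp5, middle start: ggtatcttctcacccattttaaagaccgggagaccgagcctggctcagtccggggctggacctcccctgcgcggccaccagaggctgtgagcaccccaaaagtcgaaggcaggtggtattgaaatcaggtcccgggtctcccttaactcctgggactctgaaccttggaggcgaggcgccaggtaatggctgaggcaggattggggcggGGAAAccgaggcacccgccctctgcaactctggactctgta
Acp5, most downstream start: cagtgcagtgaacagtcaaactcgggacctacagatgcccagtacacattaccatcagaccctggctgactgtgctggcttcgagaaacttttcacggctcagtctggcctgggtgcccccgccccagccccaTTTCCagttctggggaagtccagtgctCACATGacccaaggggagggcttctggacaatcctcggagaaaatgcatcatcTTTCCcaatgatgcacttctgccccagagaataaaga
Tnfrsf11a: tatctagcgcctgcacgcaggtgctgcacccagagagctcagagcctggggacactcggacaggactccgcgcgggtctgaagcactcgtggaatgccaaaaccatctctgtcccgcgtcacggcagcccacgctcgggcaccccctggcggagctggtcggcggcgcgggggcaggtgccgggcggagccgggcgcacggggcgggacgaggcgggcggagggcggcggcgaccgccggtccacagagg
The NFAT core appears once before each of the first pair of Acp5 starts, 2 times before the most downstream start, and not in the Tnfrsf11a window, whereas 55.6% of all 32851 windows of this length hold it. The most downstream Acp5 window also has the E-box CATGTG, read as CACATG on this strand, which 12.3% of windows hold. The AP-1 motif, the PU.1 motif and the second E-box, found in 6.75%, 23.3% and 6.02% of windows, are in none of the 4. Matches of letters are a description and say nothing on binding in these cells. In GENCODE, 10 bases of the most downstream Acp5 window and 5 of the Tnfrsf11a window are exonic. The table held windows for 3 of the 8 members, the other being Oscar, whose window holds the NFAT core 3 times and the PU.1 motif and the E-box CATGTG once each.

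Tnfrsf11a (NCBI gene 21934) encodes RANK, the receptor through which RANKL starts osteoclast formation. Its level was 13.1, 14.6 and 14.9 FPKM in the DKO libraries, against 11.0, 10.4 and 11.5 FPKM in the LKO libraries. Every DKO library was above every LKO library. The means were 14.2 ± 0.977 FPKM in DKO and 10.98 ± 0.547 FPKM in LKO (SD, n = 3 each), and the log2 fold change 0.38 ± 0.06 SE (edgeR adjusted p = 0.00019). The fold was 1.30 with a 95% interval between 1.19 and 1.42. All 6 counts were fractional, between 728 and 826 in DKO and between 572 and 628 in LKO. No other annotated gene overlaps its exons in GENCODE.

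Oscar (NCBI gene 232790) encodes the osteoclast-associated receptor, a collagen receptor that signals through the ITAM adaptor encoded by Fcer1g and gives the co-stimulatory signal beside RANK. It had 2 counts in DKO replicate 3 and none in the other DKO libraries or in any LKO library. A count of 0 here allows up to 3 counts per library, equal to between 0.148 and 0.151 FPKM, and covers counting error only. Both groups were at or under that floor, so no fold is given.

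Nfatc1 (NCBI gene 18018) encodes the transcription factor that RANKL signalling amplifies and on which Acp5, Oscar, Dcstamp and Itgb3 depend in osteoclasts. Its level was 29.4, 29.7 and 31.2 FPKM in the DKO libraries, against 28.96, 27.7 and 30.2 FPKM in the LKO libraries. The ranges overlapped. The log2 fold change of 0.07 ± 0.05 SE did not pass (edgeR adjusted p = 0.413). The 95% interval of the fold ran between 0.978 and 1.13, which a rise by more than 1.13-fold lies outside. On the FPKM scale Nfatc1 was above between 82.3% and 84.0% of the listed genes in each library.

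Dcstamp (NCBI gene 75766) and Ocstamp (NCBI gene 74614) encode multipass membrane proteins that mouse osteoclasts need to fuse. Dcstamp had 1 count in DKO replicate 2 and in LKO replicates 1 and 2, and none in the other libraries. Ocstamp had 1 count each in DKO replicates 2 and 3, and 1 and 3 counts in LKO replicates 1 and 3. Summed over the group, Dcstamp had 1 count in DKO and 2 in LKO, and Ocstamp had 2 counts in DKO and 4 in LKO. The exact 95% Poisson intervals of the Ocstamp sums, 0.242 to 7.22 in DKO and 1.09 to 10.2 in LKO, overlap widely. A difference in either gene was not detectable at this depth, where 3 counts are worth up to 0.164 FPKM for Dcstamp and 0.142 FPKM for Ocstamp.

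Car2 (NCBI gene 12349) encodes carbonic anhydrase II, which supplies the protons that osteoclasts pump onto bone. It had 2, 1 and 0 counts in the DKO libraries, against 0, 2 and 3 counts in the LKO libraries. The sums were 3 counts in DKO (exact 95% Poisson interval 0.619 to 8.77) and 5 in LKO (1.62 to 11.7), and no library of either genotype stood apart.

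Itgb3 (NCBI gene 16416) encodes the β3 integrin chain, which pairs with the αv chain to form the receptor by which osteoclasts seal themselves to bone, and which platelets also carry. Its level was 0.820, 0.760 and 0.690 FPKM in the DKO libraries, against 0.630, 0.870 and 1.08 FPKM in the LKO libraries. The LKO libraries spanned the whole DKO range, with SDs of 0.0651 FPKM in DKO and 0.225 FPKM in LKO (n = 3 each). The log2 fold change was −0.16 ± 0.19 SE (edgeR adjusted p = 0.66). The 95% interval of the fold, 0.680 to 1.17, leaves room for changes in either direction, on counts between 43.9 and 52.7 in DKO and between 40.2 and 67.8 in LKO. Without LKO replicate 3 the log2 fold change was 0.03 (edgeR adjusted p = 0.946, against 0.264 to 0.888 in the other alternatives), so its sign rests on that library. All 6 counts were fractional. Itgav, the partner chain, did not pass either, at 8.07 ± 0.630 FPKM in DKO and 8.37 ± 0.462 FPKM in LKO (SD, n = 3 each, edgeR adjusted p = 0.756).

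**Figure D2:**
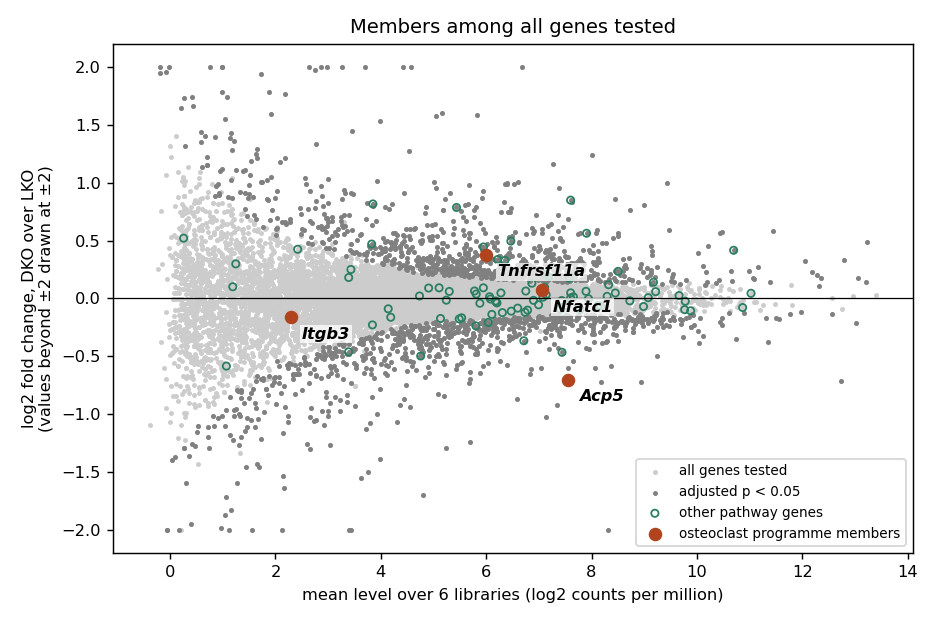
Log2 fold change of DKO over LKO against the mean level in log2 CPM (library-scaled counts) for every gene tested (light points; darker where the edgeR adjusted p was under 0.05), with the 4 tested members as labelled filled points and other pathway genes as open circles. Acp5 lies below 0 at −0.70, Tnfrsf11a above 0 at 0.38, and Nfatc1 at 0.07 and Itgb3 at −0.16 lie among genes that were not called.

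In both genotypes the level per length ran in the order Acp5, Nfatc1, Tnfrsf11a, Itgb3, and no neighbours among these 4 overlapped over the libraries. Car2, Ocstamp, Oscar and Dcstamp followed and could not be ordered. The opposite changes of Acp5 and Tnfrsf11a altered their proportion within each library. The ratio of Acp5 FPKM to Tnfrsf11a FPKM was 8.23, 7.34 and 6.58 in DKO, against 15.9, 16.4 and 14.6 in LKO. The ratio of Acp5 FPKM to Nfatc1 FPKM averaged 3.47 ± 0.281 in DKO and 5.93 ± 0.321 in LKO (SD, n = 3 each).

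The remaining genes of the osteoclast pathway were followed in 6 lists by role, with 94 genes in all, of which 87 were tested. The lists were chosen by known function, but with earlier results of these data known. The share called in them therefore cannot be read as an excess over all genes. In DKO 15 of them rose, 6 fell and 66 did not pass. That is 24.1% called, against 14.3% of all genes, and the median log2 fold change was 0.01 for the pathway genes and 0.00 for all genes tested. Calls went in both directions within 4 of the 6 lists.

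Among ligands, receptors and the signalling chain of RANKL and M-CSF, 3 of 17 tested genes rose, none fell and the median log2 fold change was 0.04. Csf1, which encodes M-CSF, stood at 4.74, 5.08 and 3.74 FPKM in DKO, against 1.93, 2.85 and 2.80 FPKM in LKO, a log2 fold change of 0.82 ± 0.13 SE (edgeR adjusted p = 0.000157). Every DKO library was above every LKO library. Csf1r, the receptor for M-CSF, rose by 0.42 on the log2 scale, and Sqstm1, the scaffold p62 of RANK signalling, by 0.23 (edgeR adjusted p = 5.7e-06 and 0.000849). Of the ligand itself there was almost no signal: Tnfsf11, which encodes RANKL, had 1 count in DKO replicate 2 and none elsewhere. Tnfrsf11b, the decoy receptor that binds RANKL, stood at 0.417 ± 0.0851 FPKM in DKO and 0.293 ± 0.0833 FPKM in LKO and did not pass (edgeR adjusted p = 0.426). Traf6, the adaptor directly below RANK, was at 5.72 ± 0.266 FPKM in DKO and 5.37 ± 0.133 FPKM in LKO (SD, n = 3 each, edgeR adjusted p = 0.431). Mapk14, the kinase p38 alpha, did not pass at a log2 fold change of 0.12 (edgeR adjusted p = 0.0804).

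In the list of ITAM co-stimulation and calcium signalling, 1 of 15 tested genes rose and 1 fell (median log2 fold change −0.02). The riser was Trem2, a receptor that signals through the adaptor encoded by Tyrobp, with a log2 fold change of 0.79. Blnk, an adaptor for Btk and Tec kinases downstream of such receptors, was the gene that fell: 68.3, 70.1 and 69.1 FPKM in DKO, against 94.4, 99.4 and 95.03 FPKM in LKO. Its ranges were far apart relative to the spread, at a log2 fold change of −0.47 ± 0.05 SE (edgeR adjusted p = 2.34e-07). Blnk is also known as a B-cell gene, and the B-cell markers described below were lower in the same libraries. The ITAM adaptors themselves were abundant and did not pass: Fcer1g averaged 3207 ± 85.4 FPKM in DKO and 3135 ± 58.1 FPKM in LKO, and Tyrobp 1081 ± 61.0 FPKM in DKO and 1046 ± 25.9 FPKM in LKO (SD, n = 3 each). The kinase gene Syk and the calcineurin subunit gene Ppp3cb had log2 fold changes of −0.10 and −0.12 and did not pass (edgeR adjusted p = 0.0953 and 0.163). Siglec15, another receptor of this kind, was listed in no library.

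Of 18 tested transcriptional activators, 2 rose and 3 fell (median log2 fold change −0.06). Mitf, which acts with PU.1 on osteoclast genes such as Acp5, rose by 0.44 on the log2 scale, and the AP-1 subunit gene Junb by 0.21 (edgeR adjusted p = 2.43e-05 and 0.00683). Myc, which is required early in RANKL-driven differentiation, fell to 9.22 ± 0.463 FPKM in DKO, against 13.1 ± 0.555 FPKM in LKO (SD, n = 3 each, log2 fold change −0.50 ± 0.07 SE, edgeR adjusted p = 5.18e-05). Pparg, a nuclear receptor, and Batf, an AP-1 factor, fell with log2 fold changes of −0.46 and −0.24 (edgeR adjusted p = 0.02 and 0.0286). Pparg missed the threshold when DKO replicate 1 or 3 was left out (edgeR adjusted p = 0.0625 and 0.134), and when LKO replicate 2 or 3 was (edgeR adjusted p = 0.0505 and 0.0514). Batf missed it when DKO replicate 2 or 3 was left out (edgeR adjusted p = 0.194 and 0.0698), or LKO replicate 2 (edgeR adjusted p = 0.134). Prdm1, the repressor Blimp1 that lifts the brakes on NFATc1, did not pass, at 3.19 ± 0.138 FPKM in DKO and 3.42 ± 0.340 FPKM in LKO (SD, n = 3 each, edgeR adjusted p = 0.62). Spi1, which encodes PU.1, was at 556 ± 23.1 FPKM in DKO and 551 ± 44.7 FPKM in LKO (SD, n = 3 each).

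Genes that restrain the programme were called in 4 of 12 cases, 3 higher and 1 lower, with a median log2 fold change of −0.01. Irf8, which represses Nfatc1, and Pirb, an inhibitory receptor, rose with log2 fold changes of 0.17 and 0.14, and Tnfaip3, an inhibitor of NF-κB, fell by 0.21 on the log2 scale (edgeR adjusted p = 0.0213, 0.025 and 0.0172). These 3 calls depended on single libraries. Irf8 missed the threshold when DKO replicate 1 or 3 was left out (edgeR adjusted p = 0.0681 and 0.145), and when LKO replicate 1 or 3 was (edgeR adjusted p = 0.0558 and 0.066). Pirb missed it when DKO replicate 2 or 3 was left out (edgeR adjusted p = 0.0771 and 0.163), or LKO replicate 3 (edgeR adjusted p = 0.0651). For Tnfaip3 the libraries were DKO replicates 1 and 2 (edgeR adjusted p = 0.0706 and 0.0621) and LKO replicate 1 (edgeR adjusted p = 0.0578).

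In the fusion list 3 of 11 tested genes rose and 1 fell (median log2 fold change 0.13). Adam8, a membrane metalloprotease that promotes osteoclast formation, was at 28.8, 27.9 and 29.9 FPKM in DKO, against 20.6, 24.4 and 24.6 FPKM in LKO (log2 fold change 0.33 ± 0.06 SE, edgeR adjusted p = 0.00106). The fusion-associated proton pump subunit gene Atp6v0d2 had a log2 fold change of 0.47 (edgeR adjusted p = 0.0067, or 0.0612 with DKO replicate 1 left out), and P2rx7, an ATP-gated channel, one of 0.19 (edgeR adjusted p = 0.0203). P2rx7 missed the threshold when DKO replicate 3 was left out (edgeR adjusted p = 0.19), or LKO replicate 1 or 2 (edgeR adjusted p = 0.0514 and 0.0501). Cd44, a hyaluronan receptor, fell to 20.5 ± 0.715 FPKM in DKO, against 26.5 ± 1.73 FPKM in LKO (SD, n = 3 each, log2 fold change −0.37 ± 0.06 SE, edgeR adjusted p = 8.03e-05). These rises stood beside Dcstamp and Ocstamp at or near 0.

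Among attachment and resorption genes 3 of 14 tested rose, none fell and the median log2 fold change was 0.03. The genes that rose were the matrix metalloproteases Mmp9 and Mmp14 and osteopontin, Spp1, with log2 fold changes of 0.85, 0.50 and 0.56. Mmp14, which has its catalytic site at the cell surface, was at 24.6, 29.3 and 26.7 FPKM in DKO, against 17.2, 21.2 and 19.2 FPKM in LKO (edgeR adjusted p = 3.68e-05). All 3 DKO values exceeded all 3 LKO values. The genes most particular to resorbing osteoclasts stayed low: Ctsk, the collagen-degrading protease cathepsin K, had 11, 10 and 7 counts in DKO, against 9, 6 and 9 counts in LKO, and Calcr, the calcitonin receptor, had 1 count in DKO replicate 2 and none elsewhere. Slc9b2 was listed in no library. In this list the genes of acid secretion that macrophages also use for lysosomes did not pass. Among them Clcn7, the chloride transporter, was at 25.9 ± 1.03 FPKM in DKO and 27.98 ± 0.812 FPKM in LKO (SD, n = 3 each, edgeR adjusted p = 0.216). Atp6v0d2, the proton pump subunit gene of the fusion list, rose, as given above.

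**Figure D3:**
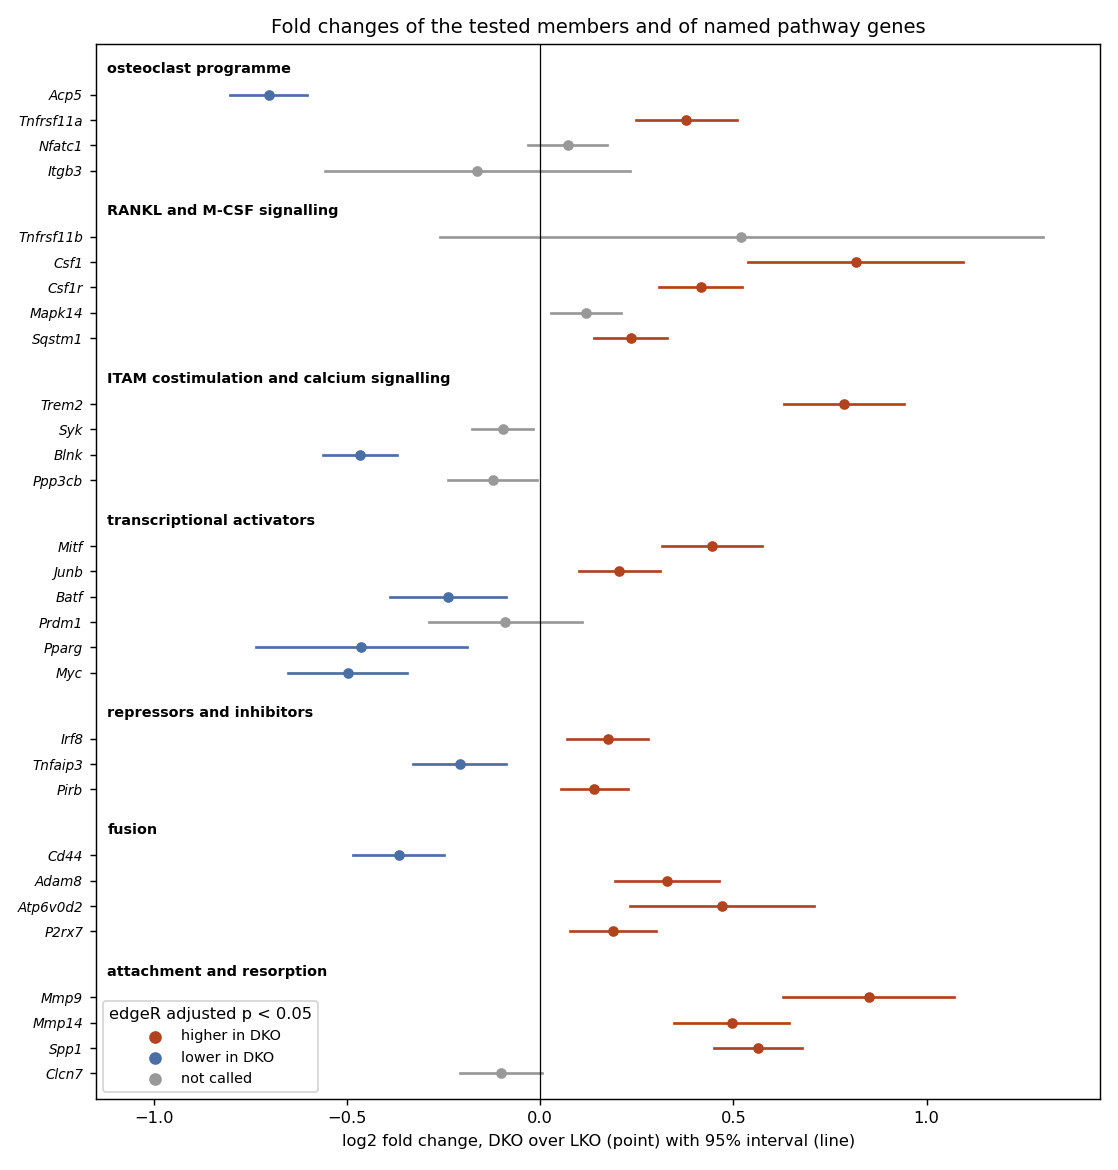
Log2 fold change of DKO over LKO (points) with its 95% interval (lines) from the edgeR fit for the 4 tested members and named pathway genes by role, coloured by whether the adjusted p was under 0.05 and in which direction. Acp5 at −0.70 has the lowest value shown, and Mmp9 at 0.85 and Csf1 at 0.82 the highest.

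Markers of other cells that marrow cultures can hold moved in the same libraries as Acp5 and Tnfrsf11a. Of 10 neutrophil markers 9 were tested and 6 fell, with sums between 352 and 393 FPKM in DKO and between 545 and 608 FPKM in LKO. Of 5 B-cell markers 4 were tested and all 4 fell, with sums between 78.6 and 86.3 FPKM in DKO and between 102 and 114 FPKM in LKO. Of 12 stromal and osteoblast markers, cells that can make RANKL in marrow, 10 were tested and 5 rose, with sums between 71.5 and 98.6 FPKM in DKO and between 45.3 and 51.6 FPKM in LKO. Bglap, the osteoblast gene for osteocalcin, had too few counts to be tested, with 0 in every DKO library and 1, 1 and 1.24 expected counts in the LKO libraries, all under the floor of 3 counts. Of 10 macrophage markers 6 rose and 1 fell. For comparison, 7.42% of all genes tested were higher and 6.88% lower in DKO. The part of these cells in the changes of Acp5 and Tnfrsf11a was not tested.

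Megakaryocytes and platelets also express Itgb3, and 1 of their 6 tested markers, of 8 listed, rose, the chemokine gene Pf4. Their sums were between 119 and 135 FPKM in DKO and between 104 and 110 FPKM in LKO. Most of this was Pf4 alone, at 120 ± 9.43 FPKM in DKO and 96.9 ± 4.29 FPKM in LKO (SD, n = 3 each). The defining platelet gene Itga2b was at 0.397 ± 0.0737 FPKM in DKO and 0.507 ± 0.0971 FPKM in LKO (SD, n = 3 each). Other platelet markers stood higher, above the level of Itgb3. Ppbp was at 5.44 ± 0.535 FPKM in DKO and 5.01 ± 0.383 FPKM in LKO (SD, n = 3 each). Gp9 was at 2.63 ± 0.2875 FPKM in DKO and 4.14 ± 0.788 FPKM in LKO (SD, n = 3 each). Neither passed (edgeR adjusted p = 0.668 and 0.0681). Erythroid cells are rich in carbonic anhydrases. Of 10 erythroid markers 5 were listed in no library, among them Hba-a2, Hbb-bs, Hbb-bt and Car1. A gene listed nowhere may have had no reads or may be missing from the annotation used, and these cannot be told apart. The sums of the rest were at most 2.94 FPKM in DKO and 2.37 FPKM in LKO. Dendritic cell markers summed to between 1.75 and 2.87 FPKM in DKO and between 2.45 and 4.19 FPKM in LKO, with 1 of 3 tested lower, and mast cell markers to at most 0.390 FPKM in DKO and 0.470 FPKM in LKO, with none of 1 tested called. Of the 12 osteoclast markers, which are the 8 members with Ctsk, Calcr, Mmp9 and Atp6v0d2, 6 were tested, 3 rose and 1 fell. Over all genes tested, 14.3% were called in either direction.

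**Figure D4:**
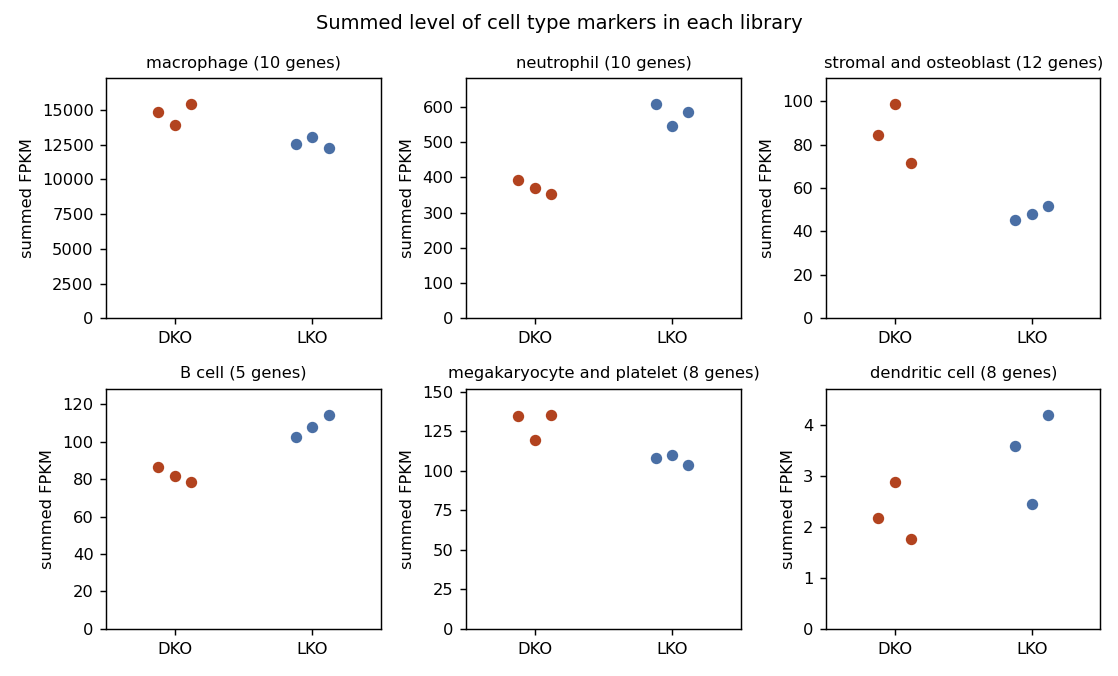
Summed FPKM of 6 lists of cell type markers in each library, DKO left and LKO right in every panel, with 3 points per genotype and axes from 0. Neutrophil and B-cell sums are lower and stromal and osteoblast sums higher in all 3 DKO libraries than in any LKO library. Macrophage sums and megakaryocyte and platelet sums, the latter mostly Pf4, are also higher in all 3 DKO libraries, and dendritic cell sums overlap.

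The genes whose profile over the 6 libraries lay closest to that of Acp5 were Spib, Slc13a3 and Anxa6. Closeness was the root mean square difference of log2 CPM, each gene centred on its own mean, and was 0.0435 for Spib, 0.0474 for Slc13a3 and 0.0535 for Anxa6, against a median of 0.371 over all other genes tested. Spib, which encodes a transcription factor related to PU.1, averaged 5.89 ± 0.274 FPKM in DKO and 9.99 ± 0.119 FPKM in LKO. Slc13a3, which encodes a dicarboxylate transporter, averaged 1588 ± 41.5 FPKM in DKO and 2625 ± 68.5 FPKM in LKO, and Anxa6, an annexin, 139 ± 3.29 FPKM in DKO and 231 ± 8.92 FPKM in LKO (SD, n = 3 each). Acp5 was used here as the member of smallest p. All 3 genes had lower levels in DKO, as Acp5 does, but this follows from choosing them by closeness to its profile.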

How the data were processed

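RNA was sequenced from 6 macrophage cultures, 3 per genotype, grouped by their labels. Per the file headers, the deposited columns are the expected count, the FPKM computed by the authors and the transcript length in bases of each gene. The submitters' processing notes name Bowtie 0.12.2 and mm8; for the counting tool and strand setting the sources used here give nothing. The lowest FPKM listed was 0.01, and genes not listed in a library entered as 0. Gene numbers were matched to RefSeq symbols (GRCm38), 16832 of 16871 with success, and 161 of 169 names on the gene lists had a row.

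Expected counts were rounded and tested in R 4.3.3 with edgeR 4.0.16 (filterByExpr, TMM, quasi-likelihood test on genotype alone). P-values were adjusted by Benjamini-Hochberg for 11809 genes, and 0.05 was the threshold. Standard errors come from the fold change and F statistic. Means ± SD are of FPKM. Each library counted as 1 sample. Replicates differed beyond sampling noise (chi-square over degrees of freedom at least 1.68), which does not show whether they came from separate mice. Alternatives used DESeq2 1.42.0, limma 3.58.1 on log2(FPKM + pseudocount), other size factors, filters and thresholds, a replicate block, and each library left out in turn. Poisson intervals and floors cover counting error only.

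The members and lists were chosen with earlier results of these data known. Named are the 8 members, up to 4 pathway genes of smallest p per list, every call where a list had 3 or fewer in a direction, and a few genes fixed by role. Itgav, Traf6, Tyrobp, Fcer1g, Spi1, Siglec15, Slc9b2, Itga2b, Pf4, Bglap, Ppbp, Gp9, Epor and Lyz2 were named after their values were seen. Single values of some listed genes are not reported here.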

Additional observations from a re-analysis of the deposited data

How the results depend on the processing

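The calls of Acp5 (log2 fold change between −0.73 and −0.67, edgeR, DESeq2 or limma adjusted p at most 0.000933) and Tnfrsf11a (between 0.26 and 0.43, adjusted p at most 0.037) held in all 15 alternatives, and Nfatc1 was called in none (adjusted p between 0.273 and 0.768). Itgb3 was called in none of the 12 that tested it, and leaving out each replicate gave log2 fold changes between −0.348 (without LKO replicate 1) and 0.0332 (without LKO replicate 3, where the sign reversed). Over all genes, 876 were higher and 813 lower; at an adjusted p of 0.01 these were 553 and 452, in limma with pseudocounts of 1, 0.1 and 5 the higher ones were 561, 557 and 563, in limma without a filter 425 and 382, and in DESeq2 539 were lower. Of the pathway genes, 15 higher and 6 lower, limma without a filter called 8 higher and the threshold of 0.01 left 3 lower. Of the named pathway calls, Batf and Irf8 missed the threshold in 9 of 15 alternatives, P2rx7 and Pirb in 8, Pparg in 7, Tnfaip3 in 6, Atp6v0d2 in 2, and Csf1, Junb and Adam8 in 1, limma without a filter. Leaving out each replicate gave between 625 and 753 higher and between 550 and 730 lower genes, and between 12 and 14 higher and between 4 and 7 lower pathway genes. Same-numbered libraries did not deviate together (r = 0.0179, −0.056 and −0.0273 for replicates 1, 2 and 3 over 11809 genes), so the numbers were not taken to pair them. With the replicate block 810 genes were higher and 743 lower, 15 pathway genes were higher and 6 lower, and the member calls did not alter. Without a count filter, edgeR gave adjusted p of 0.846 for Dcstamp, 0.761 for Ocstamp, 0.531 for Oscar and 0.813 for Car2. Depth limits these 4 members to statements on counts of 3 or fewer.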
